A study of Mus musculus with 8 samples.

Results

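The 10 genes described here encode RNA-binding proteins and splicing factors best known from neurons. They are the neuronal ELAVL genes Elavl2, Elavl3 and Elavl4, the CELF genes Celf3, Celf4 and Celf5, the NOVA genes Nova1 and Nova2, the microexon splicing factor Srrm4, and Rbfox2. They were taken by gene symbol from a table of 22691 genes, by a rule that sets no threshold on measured values, and all 10 were among the 13380 genes with enough reads to be tested. The data are RNA-seq of small cell lung cancer (SCLC) cell lines that were derived from primary lung tumors of mice. Nfib, which encodes the DNA-binding protein nuclear factor I B, was overexpressed in 4 cultures (4 Nfib libraries), and the same 4 cultures received an empty vector (4 empty vector libraries). The genotype label of all 8 libraries gives invCAG-Mycl-Luc, a Mycl transgene joined to luciferase and named for the CAG promoter, together with Rb1-/-, and the background strain is FVB/n; 129/Ola. The cultures are Lmyc1 old (pair 1), Lmyc3 old (pair 2), Lmyc3 new (pair 3) and Lmyc5 new (pair 4). By these names 3 lines stand behind the 4 pairs. Whether both Lmyc3 cultures come from 1 line was not tested. The words old and new are not explained in the sources used here. Nor do these sources say which promoter drives the Nfib vector, or whether libraries come from separate cultures, so the p-values cover only these 8 libraries. Each culture gave 1 Nfib and 1 empty vector library. Tests that pair libraries or compare cultures thus take their spread from how the difference between Nfib and empty vector varies between cultures. Part of that spread may be technical.

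In neurons, these proteins bind short motifs in pre-mRNA and mRNA and set which exons are kept, where transcripts end and how stable they are. NOVA and RBFOX proteins act near alternative exons, neuronal ELAVL proteins (also called HuB, HuC and HuD) bind U-rich stretches of introns and untranslated ends, and SRRM4 promotes the inclusion of very short exons. SCLC is a neuroendocrine tumor that expresses many neuronal genes, and the human HuD and NOVA proteins are the antigens of antibodies found in patients with SCLC and other tumors who develop paraneoplastic neurological disease.

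Libraries held between 21815264 and 29934021 counts, and the limit of 3 counts that a count of 0 allows lay between 0.1 and 0.138 CPM (counts-per-million), for counting error only. Nfib itself stood at 1282, 4682, 2933 and 3590.0 CPM in the Nfib libraries of pairs 1 to 4, against 72.0, 400.2, 163 and 487 CPM in the empty vector libraries, so each library matched its label. All 7 neuroendocrine markers summed here (Insm1, Chga, Syp, Uchl1, Ncam1, Calca and Nkx2-1) were measured, with summed levels of 1904 to 2569 CPM in Nfib libraries and 2437 to 3318 CPM in empty vector libraries. Markers of fibroblasts summed to at most 12.4 CPM, of endothelium to at most 6.82 CPM, of leukocytes to at most 2.35 CPM and of lung epithelium to at most 14.3 CPM in any library. Of 6 markers of neurons and glia, Slc17a7 and Gfap were under 1 CPM in every library and Neurod2 was not matched. The sum of the others was 144 to 318 CPM in Nfib libraries and 152 to 319 CPM in empty vector libraries. Mbp ranged from 91.05 CPM (Lmyc3 new, Nfib) to 238 CPM (Lmyc3 old, Nfib). Gad1 ranged from 1.56 CPM (Lmyc3 old, empty vector) to 138 CPM (Lmyc1 old, empty vector). Neurod1 ranged from 0 CPM (Lmyc5 new, Nfib) to 19.6 CPM (Lmyc1 old, empty vector).

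All 10 genes were expressed in all 8 libraries, and their range over the cultures was wider than any difference within a pair. The range over the 4 culture means, on the log2 CPM scale, was larger than the largest within-pair difference for 10 of 10 genes, as it was for 89.8% of all tested genes. All 10 differed between cultures in edgeR's quasi-likelihood test with the arm as a covariate, where 76.7% of all tested genes passed at an adjusted p of 0.05. The ranges spanned 0.58 for Nova2 to 2.28 for Celf5, with a median of 1.55 for the 10 genes and 0.93 for all tested genes. The size of the absolute within-pair log2 ratio, by contrast, had a median of 0.18 for the 10 genes and 0.17 for all tested genes. With 2 libraries to a culture, the test compares these 4 cultures only, and in bulk RNA fewer expressing cells and less RNA per cell cannot be told apart.

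**Figure D1:**
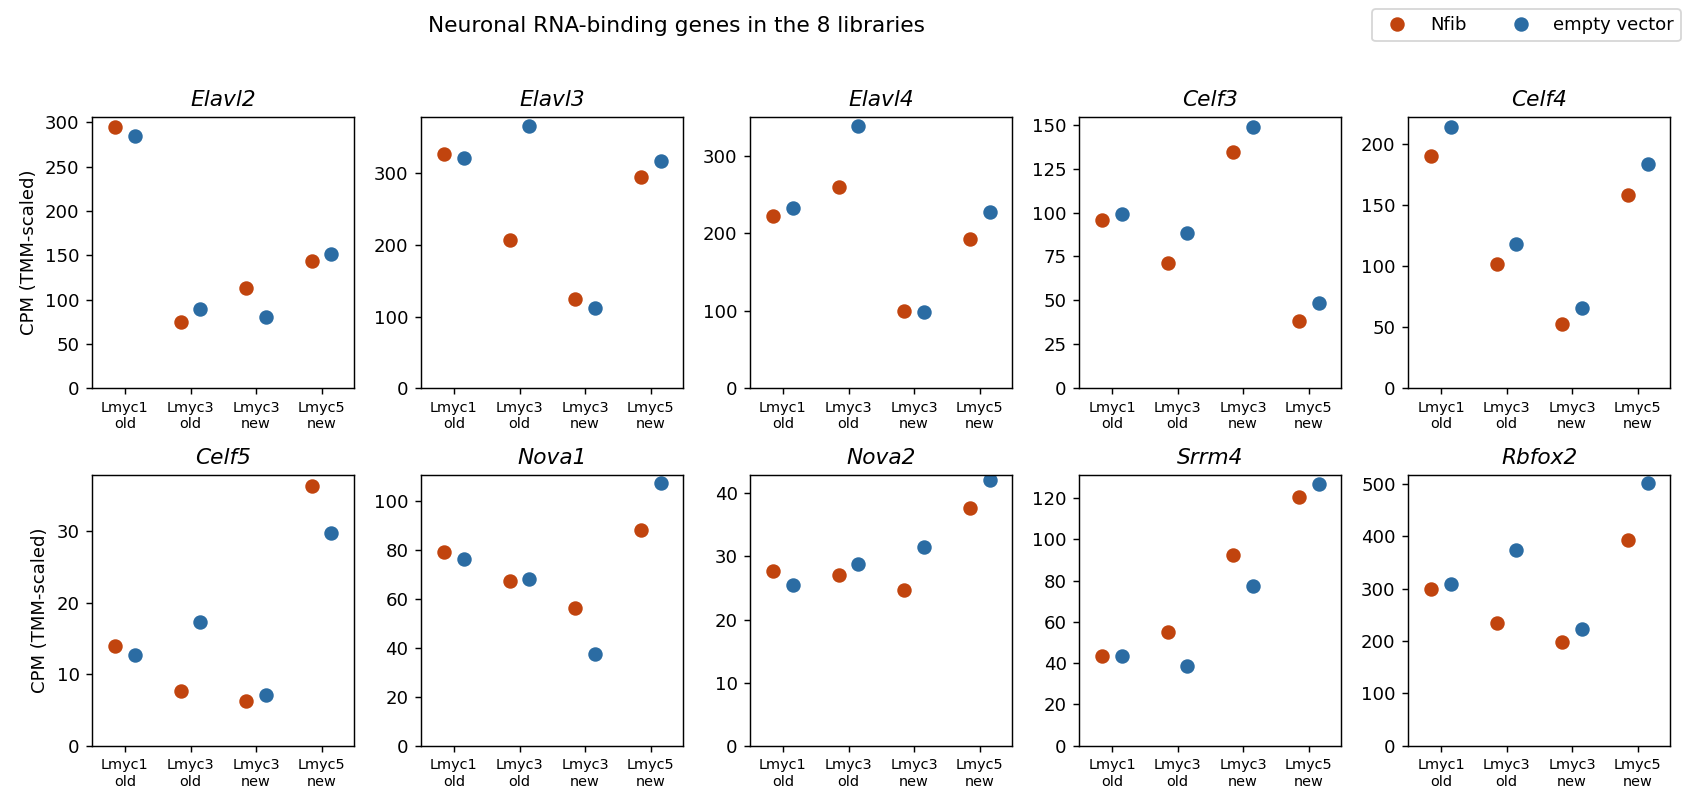
Level of each of the 10 genes (vertical axis, CPM scaled by TMM library sizes, starting at 0) in the 4 cultures (horizontal axis); each point is 1 library, with Nfib left of empty vector. The range over the cultures exceeds the largest gap within a pair for every gene, but single steps do not, as in Elavl3, where the Lmyc3 old pair stands at 207 and 366 CPM. In Elavl2, Lmyc1 old stands at 295 and 284 CPM and every other library at 151 CPM or less.

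The steps between cultures did not run in 1 direction for all genes. Of the 10, 5 had their highest mean in Lmyc5 new (24.6% of all tested genes did), 3 in Lmyc1 old (19.5%), 1 in Lmyc3 old (30.2%) and 1 in Lmyc3 new (25.7%). The lowest mean was in Lmyc3 new for 6 genes (26.5% of all tested genes), namely Elavl3, Elavl4, Celf4, Celf5, Nova1 and Rbfox2. All 10 genes passed in the contrast of Lmyc5 new with Lmyc3 new, in which 45.8% of all tested genes passed, and 9 were higher in Lmyc5 new (22.9% of all genes) while Celf3 was lower. Between the cultures that share the name Lmyc3, new and old, 6 genes passed against 59.9% of all tested genes. This was the largest share of all tested genes among the pairwise contrasts, although the names give 1 line. Celf3 and Srrm4 were higher in Lmyc3 new (30.4% of all tested genes), and Celf4, Elavl3, Elavl4 and Rbfox2 were lower (29.5%). Of these calls, that of Rbfox2 (-0.50 ± 0.15, edgeR adjusted p = 0.0316) did not pass with total-count scaling (adjusted p = 0.0513) or without the Lmyc5 new pair (0.0557). In the other contrasts, 8 genes passed between Lmyc3 new and Lmyc1 old (38.4% of all tested genes), 7 between Lmyc5 new and Lmyc1 old (46.6%), 4 between Lmyc3 old and Lmyc1 old (48.4%) and 8 between Lmyc5 new and Lmyc3 old (50.2%).

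Per kilobase of annotated exon (all exons of a gene merged), which allows a rough comparison between genes, Rbfox2, Elavl4 and Elavl3 stood highest, at 38.9 ± 12.0, 38.8 ± 15.4 and 37.5 ± 13.7 CPM per kb (mean and SD of the 4 culture means). These neighbours differ by less than their spread, and the order of near neighbours depends on the length used. Elavl2 followed with 18.5 ± 11.4, Celf3 with 16.6 ± 7.46 and Celf4 with 15.8 ± 7.44 CPM per kb, and these also overlap. Srrm4 (8.62 ± 4.34 CPM per kb) and Nova1 (8.29 ± 2.41) were alike in mean, and Nova2 (3.66 ± 0.741) and Celf5 (2.46 ± 1.72) stood lowest.

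The neuronal ELAVL genes encode RNA-binding proteins that stabilise neuronal mRNAs and steer their splicing, and each of the 3 had its own order of cultures. Elavl2 (chromosome 4, GRCm38 coordinates 91250763 to 91400785) stood highest in Lmyc1 old. It measured 295, 74.7, 113 and 144 CPM in the Nfib libraries of Lmyc1 old, Lmyc3 old, Lmyc3 new and Lmyc5 new, against 284, 89.4, 80.6 and 151 CPM in their empty vector libraries. Both Lmyc1 old libraries stood above all others, and the arms overlapped. Lmyc3 old lay below Lmyc1 old by a log2 difference of -1.82 ± 0.18 (SE, edgeR adjusted p = 0.000924), and the neighbours Lmyc3 new and Lmyc3 old did not pass (0.23 ± 0.18, adjusted p = 0.292).

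Elavl3 (chromosome 9, 22015005 to 22052023), a pan-neuronal marker gene, was low in 1 culture. In the 4 cultures in the same order, its Nfib libraries held 327, 207, 125 and 294 CPM and its empty vector libraries 321, 366, 112 and 316 CPM. The libraries of Lmyc3 new were the lowest in either arm, and those of Lmyc1 old, Lmyc5 new and Lmyc3 old were not separated from each other by the test. Lmyc3 new lay below Lmyc3 old by -1.24 ± 0.24 on the log2 scale (edgeR adjusted p = 0.00631). Without the Lmyc3 new pair the range over cultures was 0.24 and the culture test no longer passed (adjusted p = 0.643).

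Elavl4 (chromosome 4, 110203722 to 110351909), which encodes HuD, shared the low level in Lmyc3 new and was highest in the other culture named Lmyc3. Its Nfib libraries held 223, 260.5, 99.3 and 192 CPM and its empty vector libraries 234, 338, 98.3 and 228 CPM, in the same order of cultures. Both Lmyc3 old libraries exceeded all others and both Lmyc3 new libraries lay below all others. The difference of Lmyc3 new from Lmyc3 old was -1.59 ± 0.11 on the log2 scale (edgeR adjusted p = 0.000241), a 3.01-fold lower level, and Lmyc1 old and Lmyc5 new did not differ by the test (adjusted p = 0.388). Elavl2 and Elavl4 lie on chromosome 4 together with the endogenous Nfib gene, and a relation between this location and their levels was not tested.

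None of the 3 ELAVL genes passed the paired DESeq2 test of Nfib against empty vector, in which the culture is a block, and the Lmyc3 old pair moved most in Elavl3. The log2 ratios within pairs 1 to 4 were 0.02, -0.82, 0.15 and -0.11 for Elavl3. They were 0.05, -0.26, 0.49 and -0.07 for Elavl2, and -0.07, -0.38, 0.01 and -0.25 for Elavl4. The pairs thus pointed both ways for each of the 3 genes. The DESeq2 estimates were -0.19 for Elavl3 (95% interval -0.52 to 0.14, adjusted p = 0.709), 0.04 for Elavl2 (-0.23 to 0.31, adjusted p = 0.963) and -0.18 for Elavl4 (-0.36 to 0.00497, adjusted p = 0.378). Without pair 2 the Elavl3 estimate was 0.02.

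The promoters of Elavl3 and Elavl4 are shown because they were the only 2 of the 8 promoters found for these genes that hold TTGGCA on either strand. This run of letters was taken as the half-site of nuclear factor I proteins. The shorter TTGGC was not counted or marked. Read as GCCAA on the other strand, it also occurs in the Nova1 promoter and at further, unmarked places in the Elavl3 window. Each window runs from 250 bases before to 50 bases after a RefSeq start site (GRCm38.p6). Capitals mark motif matches: the half-site, read as TGCCAA on the other strand in Elavl4, and in Elavl3 also the E-box CAGCTG, a letter pattern bound by basic helix-loop-helix factors.
Elavl3, chr9:22051974-22052273, minus strand: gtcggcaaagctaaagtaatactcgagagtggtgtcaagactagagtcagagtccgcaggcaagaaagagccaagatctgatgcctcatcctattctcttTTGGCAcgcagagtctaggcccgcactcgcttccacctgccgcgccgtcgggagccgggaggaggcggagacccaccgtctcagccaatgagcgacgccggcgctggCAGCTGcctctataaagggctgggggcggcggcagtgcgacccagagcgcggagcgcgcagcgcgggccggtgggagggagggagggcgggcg
Elavl4, chr4:110351862-110352161, minus strand: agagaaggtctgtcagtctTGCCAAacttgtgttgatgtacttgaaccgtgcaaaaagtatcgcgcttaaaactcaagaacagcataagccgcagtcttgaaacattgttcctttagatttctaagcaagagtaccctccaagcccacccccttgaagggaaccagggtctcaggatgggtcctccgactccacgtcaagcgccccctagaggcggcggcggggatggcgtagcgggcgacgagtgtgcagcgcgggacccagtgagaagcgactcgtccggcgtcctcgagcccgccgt
The half-site begins at position -150 from the start site in Elavl3 and at position -231 in Elavl4. It occurs in 12.2% of the 13593 promoters searched, 1 per gene, and CAGCTG, which reads the same on both strands, in 16.5% of them and in 3 of the 8 (Elavl2, Elavl3 and Nova1). The full palindrome, TTGGC and GCCAA with any 5 bases between them, occurs in 0.0368% of all promoters and in 0 of the 8. The 2 motifs do not overlap each other in Elavl3. A match is a run of letters and no measure of binding, and neither of the 2 genes passed the test for Nfib.

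The CELF genes encode splicing and translation regulators, of which Celf3, Celf4 and Celf5 are enriched in brain, and Celf3 and Celf4 differed in where they were highest and lowest. Celf3 (chromosome 3, 94478831 to 94492193) was highest in Lmyc3 new and lowest in Lmyc5 new. It measured 95.5, 71.3, 135 and 38.3 CPM in the Nfib libraries of Lmyc1 old, Lmyc3 old, Lmyc3 new and Lmyc5 new, against 99.4, 88.3, 149 and 48.5 CPM in the empty vector libraries. The 4 cultures did not overlap in this gene. Lmyc5 new lay below Lmyc3 new by -1.71 ± 0.10 on the log2 scale (edgeR adjusted p = 0.0002), and each neighbouring step in the order passed. The step of Lmyc3 old from Lmyc1 old (-0.30 ± 0.09, edgeR adjusted p = 0.0459) did not pass without the Lmyc3 new pair (adjusted p = 0.0753) or without the Lmyc5 new pair (0.0633). Celf3 was lower with Nfib in all 4 pairs, as were Celf4 and Rbfox2, for which no promoter was found. The RefSeq start site nearest to Celf3 lies at -365 from its start in the count table. Its promoter, shown beside those of Elavl3 and Elavl4, holds neither the half-site nor the E-box, and so has no capitals. A relation between motifs and the difference with Nfib was not tested.
Celf3, chr3:94478216-94478515, plus strand: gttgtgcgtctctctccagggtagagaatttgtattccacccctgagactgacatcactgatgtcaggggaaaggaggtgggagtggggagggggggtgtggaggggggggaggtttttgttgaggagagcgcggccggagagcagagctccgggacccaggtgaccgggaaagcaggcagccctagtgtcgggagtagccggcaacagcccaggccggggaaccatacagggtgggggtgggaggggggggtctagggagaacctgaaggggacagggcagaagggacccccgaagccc

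Celf4, on chromosome 18, was highest in Lmyc1 old and lowest in Lmyc3 new. Its Nfib libraries held 191, 102, 52.7 and 159 CPM and its empty vector libraries 214, 118, 65.8 and 184 CPM, in the same order of cultures. Its cultures did not overlap either. The step of Lmyc5 new from Lmyc1 old was the smallest (-0.24 ± 0.07 on the log2 scale, edgeR adjusted p = 0.0337) and did not pass without the Lmyc3 new pair (adjusted p = 0.0517) or with no filter on low counts (0.0566). Lmyc5 new lay above Lmyc3 new by 1.54 ± 0.07 on the log2 scale (edgeR adjusted p = 0.000117), and Lmyc3 new below Lmyc3 old by -0.90 ± 0.07 (adjusted p = 0.000322), where Celf3 differed by 0.83 ± 0.09 (adjusted p = 0.00103).

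Celf5 (chromosome 10, 81459227 to 81482709) was the least abundant of the 10 per kilobase of merged exons and had the widest range over cultures. Its Nfib libraries held 14.0, 7.64, 6.30 and 36.3 CPM and its empty vector libraries 12.7, 17.2, 7.12 and 29.7 CPM. Lmyc5 new was apart from all others and exceeded Lmyc3 new by 2.31 ± 0.37 on the log2 scale, 4.97-fold (edgeR adjusted p = 0.00479). Without the Lmyc5 new pair the cultures no longer passed for this gene (adjusted p = 0.114). Its exons share 543 bases with Gm16105, an antisense gene, and 7.63% of its 50-base windows also occur in another gene.

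Celf4 was the only 1 of the 10 genes that passed the paired DESeq2 test for Nfib, as a small decrease. Within pairs 1 to 4 its log2 ratios were -0.17, -0.22, -0.32 and -0.21, so every pair was lower with Nfib, although the arms overlapped (126 ± 61.1 CPM with Nfib and 146 ± 66.5 CPM with empty vector, SD, n = 4 each). Celf4 fell by 0.23 on the log2 scale (95% interval -0.36 to -0.11, DESeq2 adjusted p = 0.014). The call is 1 of 10 genes, where 4.06% of all tested genes passed and 2.2% passed as lower. It did not pass in any of the 4 fits that leave out a pair (adjusted p = 0.209, 0.141, 0.440 and 0.377 without pairs 1 to 4), with total-count scaling (0.0721) or in edgeR with the same block (0.184). That edgeR fit called no gene, not even Nfib.

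Celf3 and Celf5 did not pass for Nfib, and they differed in how even the pairs were. Celf3 was lower with Nfib in all 4 pairs, with log2 ratios of -0.06, -0.31, -0.14 and -0.34 and a DESeq2 estimate of -0.22 (95% interval -0.39 to -0.04, adjusted p = 0.174). Celf5 had log2 ratios of 0.14, -1.16, -0.17 and 0.29, so the pairs pointed both ways. Its estimate was -0.23 (95% interval -0.78 to 0.33, DESeq2 adjusted p = 0.846), and 0.09 without pair 2.

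The NOVA genes, which encode neuronal splicing regulators that bind clusters of YCAY motifs, include the gene with the narrowest range over cultures, Nova2 (0.58 on the log2 scale), while the range of Nova1 was 1.08, as in Rbfox2. Nova1 (chromosome 12, 46694517 to 46818775) held 79.2, 67.1, 56.3 and 88.2 CPM in the Nfib libraries of Lmyc1 old, Lmyc3 old, Lmyc3 new and Lmyc5 new, against 76.2, 68.3, 37.5 and 107 CPM in the empty vector libraries. It was highest in Lmyc5 new and lowest in Lmyc3 new, whose difference of 1.07 ± 0.20 on the log2 scale passed (edgeR adjusted p = 0.00835), while no step between neighbours in its order did. The range over cultures was 0.65 in the Nfib libraries and 1.51 in the empty vector libraries.

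Nova2 (chromosome 7, 18925888 to 18965319) held 27.8, 27.1, 24.7 and 37.7 CPM in the Nfib libraries and 25.4, 28.8, 31.5 and 42.1 CPM in the empty vector libraries, in the same order of cultures. Only Lmyc5 new stood apart, above Lmyc3 new by 0.51 ± 0.13 on the log2 scale (edgeR adjusted p = 0.0271). Without the Lmyc5 new pair the range over cultures was 0.07 (adjusted p = 0.866). Of its 50-base windows, 30.8% also occur in another gene, mostly the opposite-strand lincRNA Gm26821, which overlaps 2652 exon bases. The counting is not stated to use strand, so reads from the 2 genes cannot be told apart.

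Neither NOVA gene passed for Nfib, and for both the pairs pointed both ways. Nova1 had log2 ratios of 0.06, -0.03, 0.58 and -0.28 in pairs 1 to 4 (DESeq2 estimate 0.07, 95% interval -0.24 to 0.38, adjusted p = 0.938). Nova2 had log2 ratios of 0.13, -0.09, -0.35 and -0.16 (estimate -0.13, 95% interval -0.38 to 0.13, DESeq2 adjusted p = 0.779).

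Srrm4, also called nSR100, promotes neuronal microexons, and a transcript form of Rest, a repressor of neuronal genes, is among its known splicing targets. Srrm4 (chromosome 5, 116439272 to 116591817) was higher in the new than in the old cultures. It measured 43.6, 55.0, 92.4 and 121 CPM in the Nfib libraries of Lmyc1 old, Lmyc3 old, Lmyc3 new and Lmyc5 new, against 43.6, 38.7, 77.6 and 127 CPM in the empty vector libraries. Both Lmyc5 new libraries exceeded both Lmyc3 new libraries, and these exceeded all 4 libraries of the old cultures. Lmyc5 new lay above Lmyc1 old by 1.51 ± 0.15 on the log2 scale (edgeR adjusted p = 0.00116) and Lmyc3 new above Lmyc3 old by 0.87 ± 0.15 (adjusted p = 0.00467), while the old cultures did not differ by the test (0.09 ± 0.15, adjusted p = 0.654).

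Rest was lower in the new than in the old cultures, the reverse of Srrm4, but the single steps of the 2 genes did not match. Its Nfib libraries held 14.6, 3.50, 0.259 and 0.273 CPM and its empty vector libraries 18.4, 1.09, 0.148 and 0.0903 CPM, in the same order of cultures. The libraries of the new cultures rest on 6 and 7 counts with Nfib and on 4 and 2 counts with empty vector, close to the limit of 3 counts. Lmyc3 old lay below Lmyc1 old by -3.03 ± 0.51 on the log2 scale (edgeR adjusted p = 0.00564) and Lmyc3 new below Lmyc3 old by -3.39 ± 0.65 (adjusted p = 0.00662), and the 2 new cultures did not differ by the test (adjusted p = 0.900). Srrm4, by contrast, differed between the new cultures (0.55 ± 0.15, edgeR adjusted p = 0.029) and not between the old ones. Counts per gene do not resolve transcript forms of Rest, and 4 cultures under 3 line names give no test of a relation between the 2 genes.

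**Figure D2:**
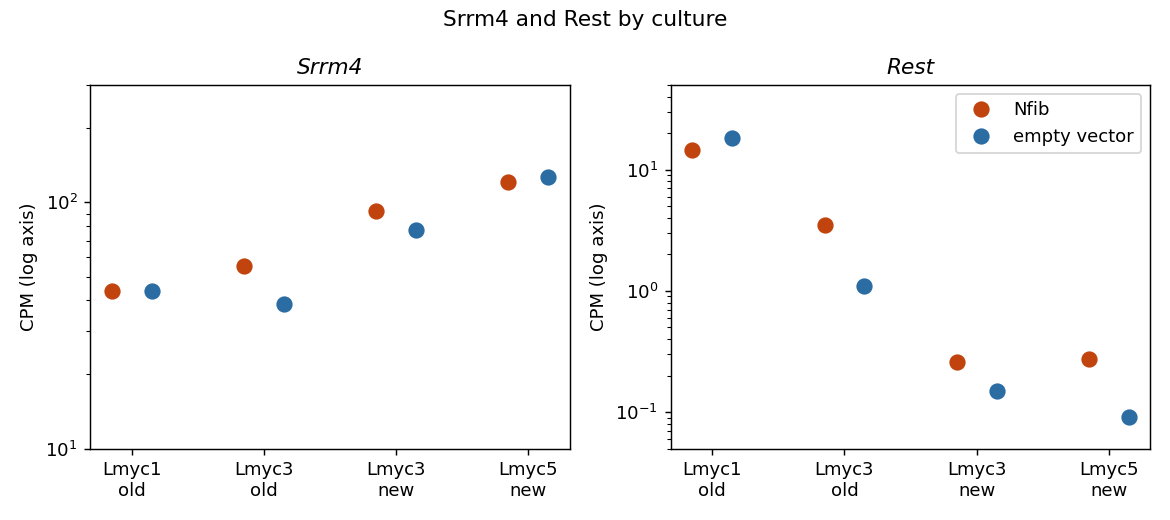
Levels of Srrm4 (left panel) and Rest (right panel) in CPM on log axes in the 4 cultures; each point is 1 library, with Nfib left of empty vector. Srrm4 is highest in Lmyc5 new, at 121 and 127 CPM, where Rest stands at 0.273 and 0.0903 CPM, and Rest is highest in Lmyc1 old, at 14.6 and 18.4 CPM.

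With Nfib, Srrm4 had log2 ratios of 0.0023, 0.51, 0.25 and -0.07 in pairs 1 to 4. The DESeq2 estimate was 0.16 (95% interval -0.09 to 0.42, adjusted p = 0.672), so it did not pass. Rest did not pass either (0.79, 95% interval -0.24 to 1.81, DESeq2 adjusted p = 0.563), with 3 pairs higher and pair 1 lower.

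Rbfox2, which binds GCAUG in introns and regulates exons in many tissues besides brain, was highest in Lmyc5 new. Rbfox2 (chromosome 15, 77078990 to 77307053) measured 299, 234, 198 and 394 CPM in the Nfib libraries of Lmyc1 old, Lmyc3 old, Lmyc3 new and Lmyc5 new, against 309, 373, 224 and 502 CPM in the empty vector libraries. Lmyc5 new stood above and Lmyc3 new below all other libraries, with a log2 difference of 1.08 ± 0.15 between them (edgeR adjusted p = 0.00307), and the old cultures did not differ by the test (adjusted p = 0.863). Without the Lmyc5 new pair the culture test did not pass (adjusted p = 0.0701).

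Rbfox2 was lower with Nfib in all 4 pairs, by log2 ratios of -0.05, -0.67, -0.18 and -0.35, but did not pass. Its means were 281 ± 85.9 CPM with Nfib and 352 ± 117 CPM with empty vector (SD, n = 4 each), and the arms overlapped. The DESeq2 estimate was -0.32 (95% interval -0.55 to -0.09, adjusted p = 0.112), the largest of the 10 in size. Without pair 2 it was -0.20 (adjusted p = 0.354).

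Set side by side, the 10 genes gave a median DESeq2 log2 fold change for Nfib of -0.19, where all tested genes gave -0.0062, and 7 of the 10 estimates were below 0 (51.5% of all tested genes). With total-count scaling the medians were -0.15 and 0.03, and again 7 were below 0. Celf3, Celf4 and Rbfox2 were lower in all 4 pairs, which held for 12.8% of all tested genes, and in 0 of the 10 genes did the arms not overlap (0.516% of all tested genes). The pairs were uneven: the median over the 10 genes was 0.01, -0.28, -0.06 and -0.19 in pairs 1 to 4, and 4, 9, 5 and 9 genes were lower.

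The summed neuroendocrine markers differed most in the Lmyc3 old pair, in which 9 genes were lower, and least in the Lmyc5 new pair, in which 9 genes were lower as well. Their sum was 1904 CPM with Nfib and 3318 CPM with empty vector in that pair. It was 2569 CPM with Nfib and 2437 CPM with empty vector in pair 1, 2334 and 3096 CPM (Nfib and empty vector) in pair 3, and 2396 and 2455 CPM (Nfib and empty vector) in pair 4, so pair 3 was lower with Nfib as well. The markers did not move together. In pair 3, Calca stood at 425.5 CPM with Nfib and 1226 CPM with empty vector. Insm1 (357 and 279 CPM) and Chga (907 and 815 CPM) were higher with Nfib in that pair, and the remaining markers were lower. In pair 4, the close sums hid moves in both directions. Chga (792 CPM with Nfib and 426 CPM with empty vector) and Ncam1 (260.5 and 229 CPM) were higher with Nfib there. The remaining markers were lower in pair 4, among them Calca (503 CPM with Nfib and 752 CPM with empty vector). Of the single markers, Nkx2-1, a lung lineage transcription factor, averaged 142 ± 28.8 CPM with Nfib and 183 ± 24.6 CPM with empty vector (SD, n = 4 each). It fell by 0.39 on the log2 scale (DESeq2 adjusted p = 0.0122), lower in 4 of 4 pairs, and passed in 2 of the 4 fits without a pair. Aqp5, a water channel of lung epithelium, averaged 5.13 ± 5.42 CPM with Nfib and 0.99 ± 1.61 CPM with empty vector, with a fitted increase of 3.08 (DESeq2 adjusted p = 0.00119) that passed in 3 of those fits. It was higher in 4 of 4 pairs, and no other marker tested from these lists passed. The part of these markers in the lower levels of the 10 genes was not tested. The summed level of the 10 genes was 1594, 1106, 902 and 1504 CPM in Nfib libraries and 1620.0, 1526, 883 and 1736 CPM in empty vector libraries.

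**Figure D3:**
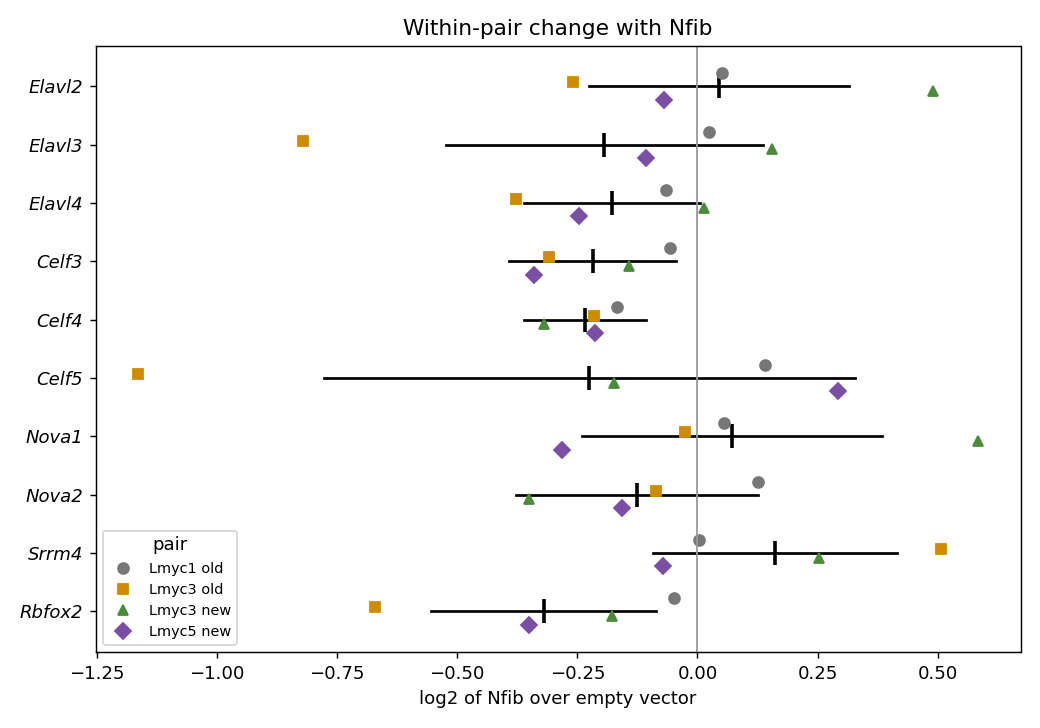
Difference with Nfib for each of the 10 genes (horizontal axis, log2 of Nfib over empty vector); points are the 4 pairs, vertical ticks the paired DESeq2 estimates and horizontal lines their 95% intervals. All points of Celf3, Celf4 and Rbfox2 lie below 0, and the Lmyc3 old pair gives the lowest points of Celf5 (-1.16) and Elavl3 (-0.82).

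Without the block, edgeR called 0 genes of all those tested (83 at an unadjusted p under 0.05, and 0 of the 10), and with the block again 0 (2012 at an unadjusted p under 0.05, among them Celf3, Celf4 and Rbfox2). The overexpressed gene, Nfib, was not called either, although its estimate with the block was 3.69 on the log2 scale (edgeR adjusted p = 0.0657). The lack of calls in these fits therefore cannot show that a gene was unaffected. Whether the difference with Nfib itself varied between the new and the old cultures was tested by an interaction in edgeR with the block. It called 0 genes (405 at an unadjusted p under 0.05, and 0 of the 10), with an adjusted p of 0.9997 for each of the 10. The mean log2 ratios of Celf4 were -0.27 in the new and -0.19 in the old cultures, and those of Rbfox2 were -0.26 in the new and -0.36 in the old cultures.

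Among Celf3, Celf4 and Celf5, the makeup differed between cultures by more than within a pair. The sums leave out the other CELF genes, of which Celf1 alone held 28.1 to 46.4 CPM per kb. Shares were taken per kilobase of exon and are descriptions without a test. Celf3 made up 77.6% of the summed Celf3, Celf4 and Celf5 level with Nfib and 75.7% with empty vector in Lmyc3 new, but 22.6% with Nfib and 25.5% with empty vector in Lmyc5 new. Celf4 made up 19.4% with Nfib and 21.3% with empty vector in Lmyc3 new, and 59.8% with Nfib and 61.7% with empty vector in Lmyc5 new. The sums of the 3 genes were closer, between 26.1 and 41.8 CPM per kb in Nfib libraries and between 32.5 and 45.0 CPM per kb in empty vector libraries. Averaged over the cultures, Celf3 held 47.9% and Celf4 44.85%. With the longest transcript as the length, these means were 42.8% for Celf3 and 51.3% for Celf4.

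For Elavl2, Elavl3 and Elavl4, without Elavl1, the summed level differed between cultures as well. It was 124, 87.4, 50.2 and 95.7 CPM per kb in the Nfib libraries of Lmyc1 old, Lmyc3 old, Lmyc3 new and Lmyc5 new, and 124, 127, 44.2 and 106 CPM per kb in the empty vector libraries. The share of Elavl2 was lowest in Lmyc3 old, at 10.3% with Nfib and 8.49% with empty vector, and highest in Lmyc1 old, at 28.5% with Nfib and 27.6% with empty vector. In the Nfib library of Lmyc1 old, Elavl3 held 38.15%. With the longest transcript as the length, Elavl2 led in that library, with 37.15% against 34.4% for Elavl3. Elavl4 was the leading ELAVL gene of Lmyc3 old, with 55.4% with Nfib and 49.6% with empty vector. It also led in Lmyc3 new, by less, with 36.7% with Nfib (Elavl3 36.15%) and 41.25% with empty vector (Elavl3 36.85%). With the longest transcript as the length, Elavl2 led in the Nfib library of Lmyc3 new, with 35.6%. Elavl3 varied least, from 34.4% to 44.6% over the Nfib libraries and from 36.9% to 43.1% over the empty vector libraries. Nova1 held 68.6% to 73.2% of the NOVA sum in Nfib libraries and 53.3% to 74.1% in empty vector libraries, the lowest in Lmyc3 new.

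**Figure D4:**
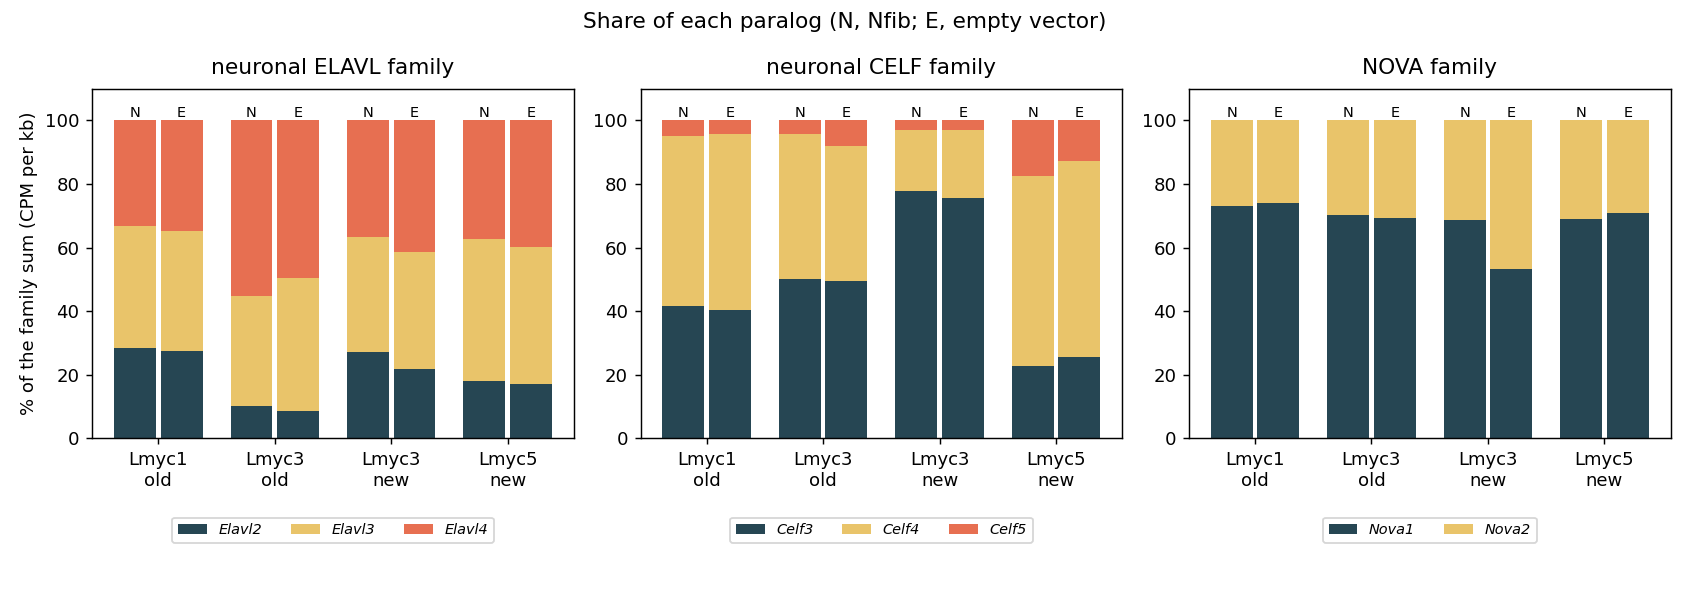
Share of each gene in the summed level of Elavl2, Elavl3 and Elavl4, of Celf3, Celf4 and Celf5, or of Nova1 and Nova2 (vertical axis, percent of CPM per kb of exon, starting at 0). The 8 libraries are shown with Nfib (N) left of empty vector (E) in each culture, and other genes of these families are not in the sums. The Celf3 block fills 77.6% and 75.7% in Lmyc3 new and 22.6% and 25.5% in Lmyc5 new.

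No 50-base window of an annotated transcript was shared between genes of 1 family, which bears on how far reads could be counted for the wrong paralog. Among the 10, Nova2 and Elavl3 were the only genes with a window in common.

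Among 7 other genes of the same families, 0 rose and 0 fell with Nfib in the paired DESeq2 test, with a median log2 fold change of 0.10, and all 7 differed between cultures (76.7% of all tested genes). Rbfox1, the neuronal and muscle relative of Rbfox2, had the widest culture range of them. It held 16.6, 90.7, 0.604 and 15.7 CPM in the Nfib libraries of Lmyc1 old, Lmyc3 old, Lmyc3 new and Lmyc5 new, against 15.3, 56.9, 0.185 and 7.72 CPM in the empty vector libraries. Lmyc3 old was highest and Lmyc3 new, with 14 counts with Nfib and 5 counts with empty vector, was lowest, a 167-fold range of culture means. Rbfox1 was higher with Nfib in all 4 pairs without passing (0.70, 95% interval 0.21 to 1.18, DESeq2 adjusted p = 0.0922), where Rbfox2 was lower in all 4. It passed without pair 1 (adjusted p = 0.0232).

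Rbfox3, which encodes the neuronal nuclear antigen NeuN, was also lowest in Lmyc3 new. It stood there at 1.12 CPM with Nfib and 0.631 CPM with empty vector, and at 51.7 CPM with Nfib and 30.6 CPM with empty vector in Lmyc5 new. Srrm3, a paralog of Srrm4, was highest in Lmyc3 new, at 80.2 CPM with Nfib and 74.7 CPM with empty vector. The broadly expressed Elavl1 (HuR) was lowest in Lmyc1 old, at 141 CPM with Nfib and 130.2 CPM with empty vector, the culture in which Elavl2 was highest. The fold ranges of Celf1, Celf2 and Celf6 over cultures were 1.46, 2.30 and 1.60.

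Of 22 other tissue-specific splicing regulators, 2 rose (1.86% of all tested genes) and 1 fell (2.2%) with Nfib, and 20 differed between cultures (76.7% of all tested genes). Rbm24, a muscle splicing factor, averaged 93.9 ± 92.3 CPM with Nfib and 37.0 ± 24.7 CPM with empty vector (SD, n = 4 each) and rose by 1.20 ± 0.23 on the log2 scale (SE, DESeq2 adjusted p = 2.96e-05). Qk, which encodes the splicing regulator Quaking, averaged 115 ± 53.0 CPM with Nfib and 86.6 ± 47.1 CPM with empty vector and rose by 0.43 ± 0.10 (DESeq2 adjusted p = 0.00108). Both were higher in 4 of 4 pairs, and Rbm24 passed in 4 and Qk in 3 of the 4 fits without a pair. Ptbp3, a polypyrimidine tract binding protein, fell by 0.24 (DESeq2 adjusted p = 0.0477), lower in 4 of 4 pairs, and passed in 0 of those fits and not with total-count scaling (adjusted p = 0.137). Of 30 SR proteins and hnRNPs, general splicing factors, 0 rose and 0 fell and 19 differed between cultures, a share below that of all tested genes, with a median range of 0.36 on the log2 scale, against 1.36 for the 22 tissue-specific regulators and 1.55 for the 10 neuronal genes.

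The genes whose centred log2 CPM was closest to each of these over the 8 libraries were looked for among 12189 protein-coding genes, by the root mean square difference. The closest were Lhfpl5 for Celf4 (0.11), Myl6b for Rbfox2 (0.11), Zfp532 for Elavl3 (0.13), Oprd1 for Celf3 (0.13), Rbm38 for Nova1 (0.13), Txnl1 for Elavl4 (0.14), Axin2 for Srrm4 (0.15), Gprasp1 for Elavl2 (0.22) and Cerk for Celf5 (0.25). The runners-up were Pcdhga12, Rnf144a, St6galnac6, Dlg3, Slc5a3, Afg3l2, Tango6, Dfna5 and Rufy3, in the same order. Nova2 was not searched, since its range over cultures was under 1. Among the 10 themselves, Nova1 and Rbfox2 were the closest pair (0.27), followed by Elavl3 and Elavl4 (0.29), and Celf3 and Celf5 were farthest apart (1.45). These values describe 8 libraries that share 4 cultures and carry no test.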

How the data were processed

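The authors deposited 1 table of raw read counts per Ensembl gene for 8 libraries, whole numbers without normalization, with symbols and GRCm38 coordinates. Per the labels' protocols, libraries followed the TruSeq RNA preparation from total RNA. The submitters' processing notes name DESeq2, SAMtools 0.1.19, TopHat2 2.1, Bowtie 1.0.0 and the build GRCm38 (mm10). How reads were counted, with or without strand, and on which annotation release is not given in the sources used here, so antisense overlaps cannot be resolved. Exon lengths come from GENCODE M21 (GRCm38), where 22434 of 22691 identifiers matched, and promoters from RefSeq (GRCm38.p6), where 8 of the 10 genes matched (not Celf4 and Rbfox2).

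Group and replicate came from sample sources and titles, and the culture of each pair from the descriptions. A further allele in the genotype label and 1 marker gene are not reported here, and sums of markers leave that gene out. All tests were fitted on the 13380 genes kept by edgeR's filter by group, with Benjamini-Hochberg adjustment over all of them at 0.05: edgeR 4.0.16 (R 4.3.3, quasi-likelihood, original form) of Nfib against empty vector with no block, of the 4 cultures and their 6 pairwise contrasts with the arm as covariate, and of the interaction of Nfib with the word new. Standard errors of edgeR values are the absolute log2 difference over the square root of F. Rose and fell refer to DESeq2 1.42.0 with the replicate number as a block (260 adjusted p-values undefined), since edgeR made no call. By the labels, the 2 libraries of a number belong to the same culture, which makes them a pair. Deviations from the group means correlated with r of 0.908, 0.884, 0.935 and 0.929 within numbers and at most 0.0647 otherwise. CPM use TMM library sizes, log2 CPM a prior count of 2, and the limit of 3 counts total counts, for counting error only, since reads carry no molecular identifiers. The fits were tested on simulated data.

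The 10 genes were taken by name and not by a threshold on values, but they, the lists and the tests were chosen with earlier results of these data known. Named were all 10 genes, Nfib and Rest, the tested members of the same families, members of the other lists that pass the paired DESeq2 test, and for each gene with a range over cultures above 1 the 2 genes of closest pattern. Lists are described by counts, without a test. Alternatives were limma 3.58.1 (voom), DESeq2 without the block, edgeR's bias-adjusted form, other scalings and filters, and each pair left out. For shares, the length of the longest transcript was the alternative.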

Additional observations from a re-analysis of the deposited data

Results flagged for a closer look

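Rest in the empty vector libraries stood at 18.42 CPM in Lmyc1 old, against 1.09, 0.148 and 0.0903 CPM in Lmyc3 old, Lmyc3 new and Lmyc5 new. The gap from the highest value to the next was 0.946 of the whole range, above Dixon's critical value for 4 samples. This was the only flag in 57 groups of 4 values examined for the 10 genes, their relatives, Rest and Nfib. Chance flags about 1 in 20 groups of repeat values, but the values here come from different cultures, so that rate does not apply. Rest differed between the cultures in the edgeR culture test (adjusted p = 0.000687), and the flag adds no separate result. The Nfib library of Lmyc1 old was also the highest of its arm, at 14.6 CPM.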

How the results depend on the processing

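Of Nfib against empty vector, edgeR called 0 genes, and with the replicate block again 0, so that Nfib itself was not called. DESeq2 called 3 genes without and 543 with the replicate block, limma voom with the block 3, edgeR's bias-adjusted form with the block 44, DESeq2 with the block and total counts 525, and DESeq2 with both Lmyc3 pairs summed 467. Leaving out pairs 1 to 4 gave 351, 382, 234 and 251 calls by DESeq2 with the block. Among the 10 genes, DESeq2 with the replicate block called 1 (Celf4), and no other alternative called one. For the interaction with the word new, edgeR called 0 genes and DESeq2 7. Leaving out a pair turned the sign of 4 uncalled log2 fold changes: Celf5 ranged from -0.41 to 0.20 in edgeR and from -0.40 to 0.094 in DESeq2 with the block, Nova1 from -0.10 to 0.16 in edgeR and from -0.088 to 0.20 in DESeq2, Elavl2 from -0.033 to 0.097 in edgeR and from -0.094 to 0.15 in DESeq2, and Elavl3 from -0.30 to 0.017 in DESeq2. Of the pairwise culture contrasts, Lmyc3 old minus Lmyc1 old called 4 of the 10 genes, and between 2 (without the Lmyc5 new pair) and 3 when another pair was left out, and Lmyc5 new minus Lmyc1 old called 7, and between 4 (without the Lmyc3 new pair) and 7. The cause was not tested. Depth limits Rest in the new cultures, where libraries hold 2 to 7 counts.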
